A study of Mus musculus with 6 samples.

Results

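The cells described here are the 3121 MPP4-class cells that lie in clusters 0 and 1, out of 16822 cells in the deposited table of single cells. They were chosen from that table alone, as the cells with the class MPP4 and the cluster number 0 or 1. MPP4 is the class given to a cell whose module score for multipotent progenitor 4 genes was the highest of 4 class scores (MPP-4, MPP-3, MPP-2 and HSC), which held for all 16822 cells. Of 6462 MPP4-class cells, 3000 lay in cluster 2 and 341 in other clusters. The members numbered 1434, 195 and 762 in PBS replicates 1 to 3, 60 in AML replicate 1 and 670 in AML replicate 3.

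Single-cell RNA was measured in bone marrow progenitors of female C57BL/6J mice of the CD45.1 strain, aged 8 to 12 weeks. AML recipients had received 1000000 cells of C1498, a murine acute myeloid leukemia line that carries CD45.2, without conditioning. PBS recipients had received the vehicle, and all animals were taken at day 21. The sort kept CD45.1+ cells with the LSK phenotype (no lineage markers, with Sca1 and cKit), so the data describe host cells and the gate was set against the CD45.2 leukemia. The table holds no cell of AML replicate 2, which leaves 3 PBS libraries and 2 AML libraries. The labels do not say how many animals stand behind a library, so the p-values measure the spread between these libraries.

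Hematopoietic stem cells (HSCs) give rise to multipotent progenitors that differ in the lineages they favor. MPP4 cells carry the Flt3 receptor and are primed for lymphoid fates, while retaining myeloid potential. Lymphoid priming brings in early lymphoid genes such as Dntt, Satb1 and Il7r, as stem cell regulators such as Mecom and Hlf are turned down.

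The depth behind the members was uneven. Their summed UMIs (unique molecular identifiers, each standing for 1 captured RNA molecule) were 5649001, 1876702 and 3201527 in the PBS libraries and 3421504 in AML replicate 3, but 179260 in AML replicate 1. The median UMI count per cell ranged from 2392 in AML replicate 1 to 8560 in PBS replicate 2. AML replicate 1 stood apart from the other libraries. The correlation of its log2 levels with each of the others was 0.854 to 0.897 over 4563 genes, against 0.951 to 0.976 among the other 4 libraries. Only 25.0% of its 60 members were called G1 (95% exact Clopper-Pearson interval 14.7 to 37.9, counting error only), and 43.3% were called G2M. Cell barcodes shared by members of more than 1 library numbered 2. Results for the members that rest on AML replicate 1 are given with and without it.

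The 4 markers placed the members between HSC-class cells and the MPP4-class cells of cluster 2. Flt3, the cytokine receptor that defines MPP4 cells, stood at 350, 279 and 356 CPM (UMIs scaled to a total of 1000000) in the PBS libraries and at 301 and 413 CPM in AML replicates 1 and 3. In cluster 2 the same libraries held 480, 391, 479, 431 and 472 CPM, and the members were lower in 5 of 5 libraries (median log2 ratio −0.45, SD 0.13). HSC-class cells of clusters 0 and 1 held 65.3 to 107 CPM in the 4 libraries with at least 20 such cells, and the members were higher in 4 of 4 (median log2 ratio 1.99). Satb1, a chromatin organizer of lymphoid priming, followed the same order. Its mean was 130 ± 38.8 CPM in the members and 224 ± 50.7 CPM in cluster 2 (SD, n = 5), with a median log2 ratio of −0.87, and 28.5 ± 11.5 CPM in HSC-class cells (SD, n = 4).

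The stem cell regulators ran the other way. Mecom, a transcription factor of HSC self-renewal, was at 215, 221 and 265 CPM in the PBS members and at 218 and 240 CPM in the AML members. Cluster 2 held 67.3 to 152 CPM, below the members in 5 of 5 libraries (median log2 ratio 1.26, SD 0.50). HSC-class cells held 427 ± 38.7 CPM (SD, n = 4), above the members in each of the 4. Hlf, which marks primitive stem and progenitor cells, was at 210, 195, 203, 123 and 193 CPM in the members, with the low value in AML replicate 1. Its median log2 ratio was 0.95 over cluster 2 and −0.39 over HSC-class cells. Flt3 and Satb1 thus went with the label MPP4 relative to HSC-class cells, while Hlf and Mecom stood above their levels in cluster 2. Class and cluster were built from the expression of these cells, so these differences are descriptions and were not tested.

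**Figure D1:**
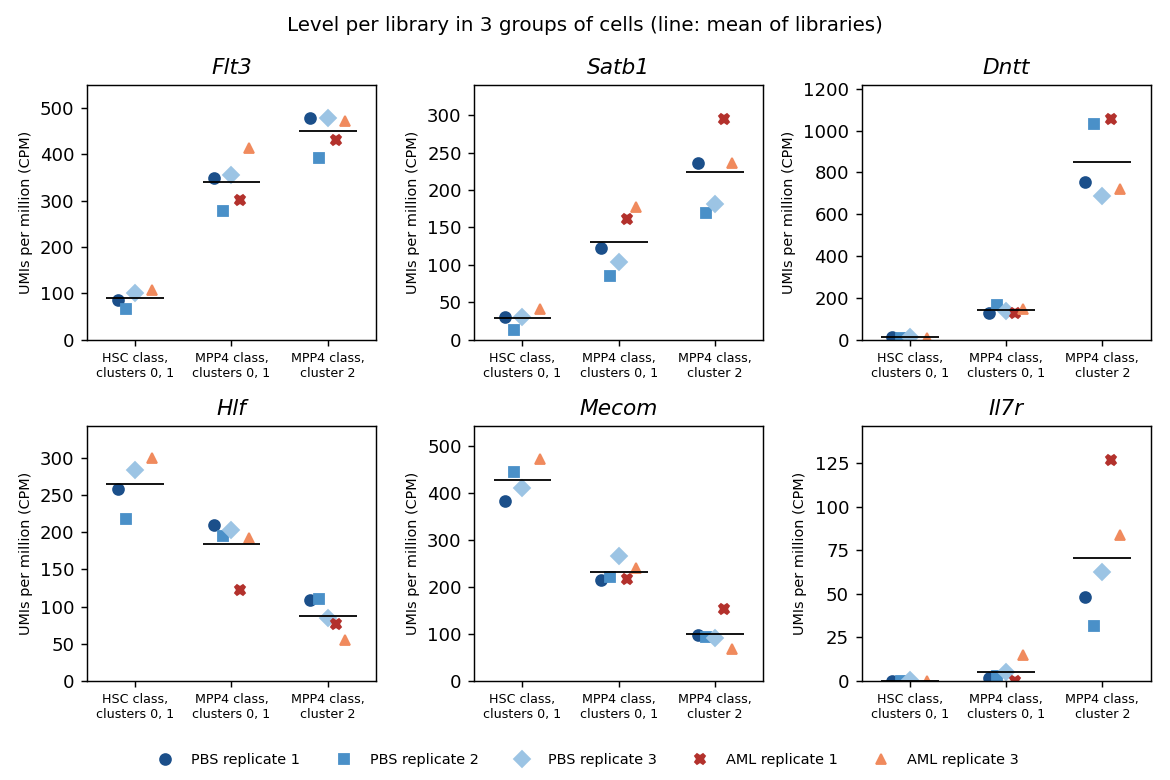
CPM (y axis) of 6 genes in HSC-class cells of clusters 0 and 1, MPP4-class cells of clusters 0 and 1 and MPP4-class cells of cluster 2. Points are libraries (HSC-class cells of AML replicate 1 numbered 19 and are left out) and lines are means. For Flt3, Satb1, Dntt, Hlf and Mecom the mean of the members lies between those of the other groups of cells.

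The class boundary was close for many of the members. The next-highest class score was within 0.05 of the MPP-4 score in 1528 members (49.0%), compared with 24.8% of the MPP4-class cells of cluster 2. The next class was HSC in 47.2% of the members, MPP-3 in 30.4% and MPP-2 in 22.4%. The median MPP-4 score was 0.0390 in the members, 0.0695 in cluster 2 and −0.0394 in HSC-class cells of clusters 0 and 1. Just inside the boundary, the 1528 members had a median MPP-4 score of 0.0235 and a next score of −0.00143. Just outside it, 1234 cells of clusters 0 and 1 carried another class with MPP-4 next within 0.05, and their median MPP-4 score was 0.00228. Clusters 0 and 1 were mixed in class, with MPP4 making up 24.6% of cluster 0 and 41.8% of cluster 1, whereas 80.4% of cluster 2 was MPP4.

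Per cell, a Flt3 UMI was found in 63.3% to 81.5% of the members, 78.0% to 94.6% of cluster 2 and 15.8% to 30.0% of HSC-class cells. With each cell thinned to 1500 UMIs, the ranges were 32.8% to 46.4%, 39.0% to 52.4% and 6.3% to 14.1%. Dntt, the terminal transferase of early lymphoid cells, separated the 3 groups of cells further. A Dntt UMI was seen in 25.1% to 35.9% of the members, against 63.4% to 87.6% of cluster 2 and 0.0% to 3.9% of HSC-class cells, which serve as the background. After thinning, the members stood at 10.0% to 15.0% and cluster 2 at 51.7% to 60.5%. Median depth per cell was 2392 to 8560 UMIs in the members, 2582 to 9076 in cluster 2 and 2330 to 7284 in HSC-class cells.

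Against cluster 2, 577 of 3149 genes with a mean of at least 50 CPM in either group of cells were higher in the members in every library (18.3%), and 428 were lower in every library (13.6%). At least 2-fold differences by the median were seen for 30 of the higher genes (0.953%) and 24 of the lower genes (0.762%). Ly6d had the lowest ratio. It is a surface marker of committed lymphoid progenitors and was at 0 to 2.34 CPM in the members and 20.3 to 160 CPM in cluster 2. Il7r, the interleukin 7 receptor, stood at 1.42, 2.66, 5.31, 0 and 14.9 CPM in the members, and at 31.3 to 127 CPM in cluster 2. Its highest value among the members was in AML replicate 3. Dntt was at 141 ± 16.0 CPM in the members and 850 ± 178 CPM in cluster 2 (SD, n = 5), a median log2 ratio of −2.56. Cox6a2 (log2 ratio −4.38), Tmem108 (−3.13), Arpp21 (−2.96), Cmah (−2.85), Ly86 (−2.84), AA467197 (−2.49) and Cnn3 (−2.38) completed the 10 lowest ratios.

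Dach1, a transcriptional cofactor, had the highest ratio and was at 105 ± 13.8 CPM in the members and 13.8 ± 6.84 CPM in cluster 2 (log2 ratio 3.13). Angpt1, the ligand of the Tie2 receptor that HSCs carry, was at 835, 757, 798, 653 and 922 CPM in the members and at 249 to 335 CPM in cluster 2. Its members' range lay wholly above that of cluster 2. Pdzk1ip1, a marker of primitive HSCs, was at 61.3 ± 22.99 CPM in the members, 12.9 ± 8.32 CPM in cluster 2 and 283 ± 25.4 CPM in HSC-class cells. Csgalnact1 (log2 ratio 2.91), Prkg1 (2.27), Gng11 (2.19), Muc13 (2.08), Otos (1.56), the tetraspanin Cd63 (1.54) and Gm15657 (1.53) were the others. The Prkg1 ratio was 0.14 in AML replicate 1, where cluster 2 held 7 UMIs of it.

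**Figure D2:**
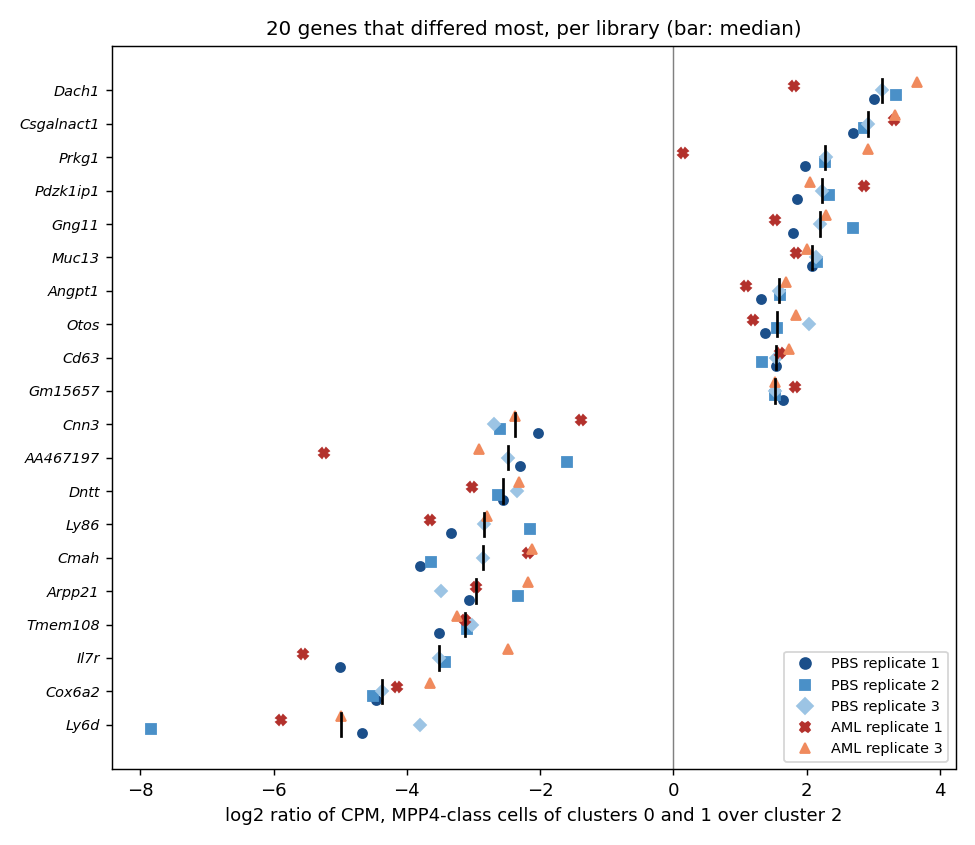
The log2 ratio of CPM in the members over cluster 2 (x axis) for the 10 genes with the highest and the 10 with the lowest median ratio. Points are the 5 libraries and bars their medians, from 3.13 for Dach1 to −4.99 for Ly6d.

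By gene list, the members held fewer transcripts of lymphoid genes than cluster 2 and more of stem cell genes. Of 20 MPP-4 and lymphoid priming genes at this level, 14 were lower in the members in every library and 1 was higher, with a median log2 ratio of −0.30 beside 0.03 over all 3149 genes. The 14 included Il12a (151 and 519 CPM), Ighm (124 and 307 CPM) and Ikzf1 (189 and 250 CPM). Of 8 HSC genes, 5 were higher in every library and none was lower, with a median of 0.95. Those 5 were Hlf, Mecom, Pdzk1ip1, Mllt3 (83.8 and 48.8 CPM) and Ifitm1 (709 and 385 CPM).

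Myeloid genes divided. Prtn3 and Mpo, proteases and peroxidase of primary granules, were higher in the members in 5 of 5 libraries, at 884 and 98.5 CPM against 423 and 35.8 CPM in cluster 2. Irf8 and Plac8 were lower in 5 of 5, at 23.2 and 931 CPM against 53.2 and 1489 CPM. Of 24 ribosome biogenesis and MYC target genes, 10 were higher in every library and none lower (median 0.15), Myc itself among them at 106 and 71.5 CPM. Of 19 interferon-stimulated genes, 8 were lower in every library and none higher (median −0.28). Isg15, Irf7 and Ifi27l2a were among those 8, at 160, 82.9 and 89.5 CPM in the members and 285, 159 and 251 CPM in cluster 2.

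Against HSC-class cells of the same clusters, 934 of 3206 genes were higher in the members in all 4 libraries (29.1%) and 698 were lower (21.8%). At least 2-fold differences by the median were seen for 35 higher (1.09%) and 40 lower genes (1.25%). Dntt led the higher genes, at 144 ± 16.6 and 9.73 ± 2.94 CPM (SD, n = 4). Ccl3 (log2 ratio 2.36), Ighm (2.18), BC035044 (2.09), Satb1 (2.08), Flt3 (1.99) and Il1r1 (1.99) followed. Wfdc17, Ube2c and Bex6 completed the 10, with log2 ratios from 1.92 to 1.97. Grb10, an adaptor of growth factor receptors, led the lower genes at 6.41 ± 1.30 and 62.5 ± 12.2 CPM. Dlg2, Bex4, Apoe, Selenom, Plxdc2, Trim47, Pdzk1ip1, Cavin3 and Hbb-bs followed, with log2 ratios from −2.84 to −1.82. HSC-class Hbb-bs rested on PBS replicate 3, at 506 CPM there and at 10.1 to 23.8 CPM in the other 3 libraries, and its reads can be shared with Hbb-bt. Of 19 MPP-4 genes, 17 were higher in the members in all 4 libraries, and of 8 HSC genes and 7 MPP-2 genes all 15 were lower. The classes were given by module scores for such genes, so these counts describe that split and were not tested. Of 14 G2M phase genes 11 were higher in the members in all 4 libraries, and of 17 S phase genes 13, with none lower. The authors' phase calls, over all 5 libraries, were G1 for 85.7% and G2M for 1.19% of HSC-class cells, against 73.6% and 6.22% of the members.

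Pooled over libraries, the members fell almost evenly into cluster 0 (1567 cells) and cluster 1 (1554 cells). Per library, cluster 0 held 48.9%, 41.0% and 51.6% of them in PBS, and 66.7% and 52.7% in AML replicates 1 and 3. Both AML shares lay above every PBS share (exact permutation p = 0.1, the smallest possible). Of 3424 genes, 1031 were higher in cluster 0 in every library (30.1%) and 791 were lower (23.1%), and 124 of the higher (3.62%) and 4 of the lower (0.117%) differed at least 2-fold by the median. The top 5 toward cluster 0 were Mki67, Nusap1, Prc1, Cenpf and Cep128, with log2 ratios from 2.58 to 1.80, the first 4 being genes of mitosis. Mki67, the proliferation antigen, was at 26.4, 27.5, 44.3, 126 and 65.9 CPM in cluster 0 and at 9.84, 0, 7.22, 44.0 and 7.52 CPM in cluster 1. The value of AML replicate 1 was 14 UMIs in cluster 0 and 3 UMIs in cluster 1.

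Cluster 0 held 20 of 22 G2M phase genes above cluster 1 in every library and none below (median log2 ratio 0.85). G1 calls were made for 68.5% of its members and G2M calls for 9.76%, against 78.7% and 2.64% in cluster 1. Of 21 S phase genes, 6 were higher in cluster 0 and 1 was lower. HSC genes pointed toward cluster 0, with 5 of 8 higher and none lower (median 0.93), as did mitochondrially encoded genes, with 8 of 10 higher and none lower (median 0.32). Toward cluster 1 were 62 of 78 ribosomal protein genes (median −0.18, none the other way) and 14 of 24 ribosome biogenesis genes (median −0.35, 2 the other way). Cst7 (22.5 and 60.2 CPM), Timm8a1, Fdps, Pno1 and Tyrobp (126 and 231 CPM) led that direction. Cells of cluster 1 were deeper, at a median of 4425.5 UMIs against 3280 in cluster 0, and the part of depth in these differences was not tested.

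The next comparison asked whether the members changed in abundance or cell cycle in mice with leukemia. The members were 21.0%, 20.9% and 17.3% of all cells of the PBS libraries, and 8.66% and 16.9% of the AML libraries. Both AML values lay below every PBS value, by 6.93 percentage points on average, in an exact two-sided permutation test with p = 0.1, the smallest that 3 against 2 libraries allow. The difference was 2.80 points without AML replicate 1. Among MPP4-class cells alone, the members' share was 50.5%, 48.0% and 47.2% in PBS and 51.3% and 45.2% in AML (exact permutation p = 1). G1 calls were made for 74.9%, 78.5% and 76.0% of the PBS members, and for 25.0% and 70.9% of the AML members (exact permutation p = 0.1). Without AML replicate 1 the mean difference in the G1 share shrank from 28.5 to 5.55 points. MPP4-class cells of cluster 2 had 71.7%, 76.2% and 79.3% in PBS and 31.7% and 67.6% in AML. These shares are of cells kept by the authors, and the sort and that choice of cells can set them.

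**Figure D3:**
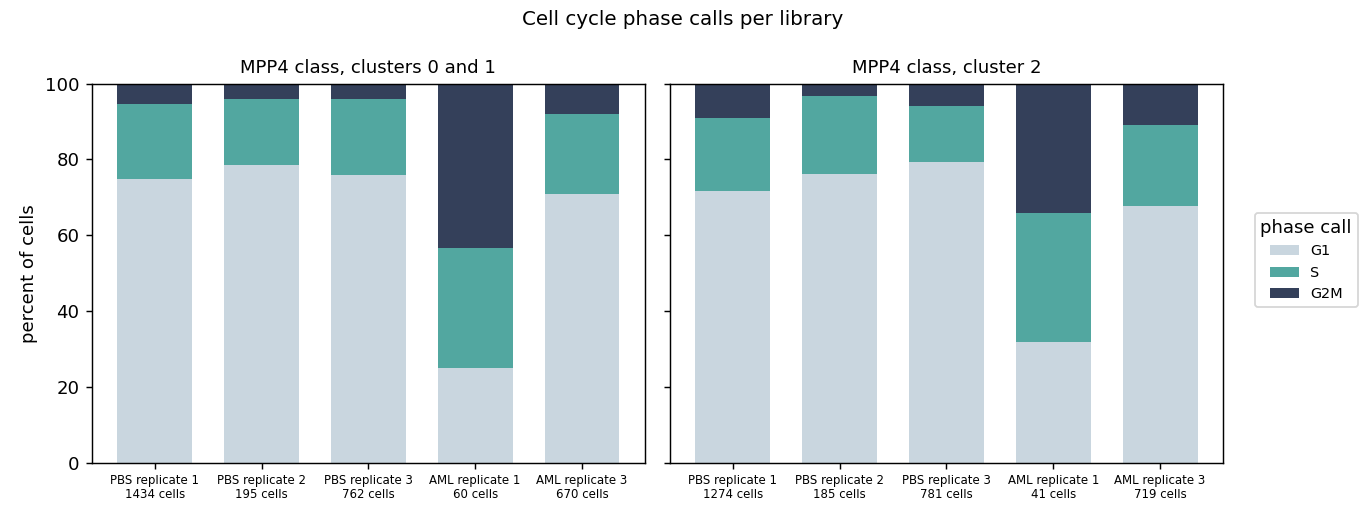
Percent of cells (y axis) with each cell cycle phase call in the 5 libraries, for the members (left) and the MPP4-class cells of cluster 2 (right). AML replicate 1 has 25.0% G1 calls among its members and the other libraries 70.9% to 78.5%.

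Gene expression of the members was then compared between AML and PBS on UMI counts summed per library. With edgeR's quasi-likelihood test and Benjamini-Hochberg adjustment, 1 of 11184 genes fell in AML at the threshold of 0.05 (0.00894%) and none rose. At an unadjusted p under 0.05, 360 genes were higher (3.22%) and 312 were lower (2.79%). The fold change was positive for 5330 genes (47.7%), the share against which the counts of positive genes per list below are to be read. For 1398 genes (12.5%) both AML values exceeded all 3 PBS values, and for 1722 (15.4%) both were under them. DESeq2 and limma-voom called 0 genes, with 228 and 643 at an unadjusted p under 0.05. Without AML replicate 1, 5 genes passed (Dscam, Fyb2, Gm13842, Ifi27l2a and Ly86), and without AML replicate 3, 44 passed. Without PBS replicate 1, PBS replicate 2 or PBS replicate 3, the count was 1, 3 or 0.

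The 1 gene that fell was Fyb2, an adaptor protein of the FYN-binding family (ENSMUSG00000078612). Its UMI counts were 78, 15 and 56 in the PBS members, and 0 and 5 in the AML members. The log2 fold change was −3.36 ± 0.613 (SE), with an edgeR adjusted p of 0.0387. In AML replicate 1 a count of 0 still allows up to 16.7 CPM, close to the PBS levels of 8.50 to 19.0 normalized CPM, so the decrease is carried by AML replicate 3. Normalized CPM here and below is scaled by the TMM factor of the comparison. The call was lost in 8 of 17 alternative analyses, and adjusted p ranged from 8.33e-05 to 0.836 across them. The log2 fold change was negative in each, from −8.23 (without AML replicate 3, against a count of 0) to −2.49. In cluster 2, Fyb2 was at 10.0, 2.43 and 18.8 normalized CPM in PBS and at 36.6 and 1.67 in AML (adjusted p = 0.269).

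Interferon-stimulated genes are switched on by interferons through STAT and IRF transcription factors and encode antiviral and inflammatory effectors. The study asked about inflammatory signaling in host progenitors exposed to leukemia. The study genes Isg15, Irf7, Irf8, Nfkb1 and Nfkb2 all had positive fold changes, and none passed the threshold. The study chose them on these samples, so their direction is not independent evidence. Isg15, a ubiquitin-like antiviral protein (ENSMUSG00000035692), was at 105, 90.6 and 120 normalized CPM in PBS and 224 and 250 in AML. The AML values did not overlap those of PBS, with a log2 fold change of 1.19 ± 0.246 (SE) and an edgeR adjusted p of 0.0588. Over 17 alternatives its fold change stayed between 1.06 and 1.30 on the log2 scale, and 4 of them passed the threshold (adjusted p 0.00521 to 0.679).

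Irf7, the factor that amplifies interferon output, was at 78.7, 70.2 and 45.1 normalized CPM in PBS and at 63.9 and 152 in AML. Its groups overlapped, since only AML replicate 3 was high (log2 fold change 0.94, edgeR adjusted p = 0.352), and without that library the fold change was −0.04. Irf8, a factor of myeloid and dendritic cell fate, was at 15.9, 7.93 and 20.02 in PBS and at 37.3 and 33.2 in AML (1.15, edgeR adjusted p = 0.308). The AML replicate 1 value of Irf8 rests on 7 UMIs. Nfkb1 and Nfkb2, subunits of NF-kB, differed by 0.23 and 1.05 on the log2 scale (adjusted p 0.917 and 0.829). Nfkb2 rested on 1 UMI in AML replicate 1, and without AML replicate 3 its difference was 0.43. The median of the 5 was 1.05, and without AML replicate 3 it was 0.43 with 4 of 5 positive. The chemokine genes Cxcl9 and Cxcl10 did not reach the filter. Cxcl9 had 3, 2 and 2 UMIs in the PBS members and none in AML. Cxcl10 had 3, 0 and 0 in PBS, and 0 and 17 in AML, all 17 in AML replicate 3. With no filter Cxcl10 was among the 53 genes that passed.

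Of 48 interferon-stimulated genes tested, 42 had a positive fold change, none passed, and 17 lay above every PBS library in both AML libraries (35.4%, beside 12.5% of all genes). Their median log2 fold change was 0.38, beside −0.02 over all genes tested. Both the positive count and the median leaned on AML replicate 3. Without it, 22 of 48 were positive and the median was −0.05, beside −0.16 over all genes. Without AML replicate 1, 44 of 49 were positive with a median of 0.51, beside −0.0057 over all genes. AML replicate 1 contributed 60 cells, and at its depth many of these genes had few or no UMIs. In G1 cells of all 5 libraries, a fit chosen after seeing the data in which AML replicate 1 had 15 cells, 43 of 47 were positive (median 0.38), and Irf7 and Ifi27l2a passed. With AML replicate 1 left out of the G1 fit, Ifi27l2a passed and Irf7 did not (edgeR adjusted p = 0.154). Ifitm3, the most abundant gene of the list, was at 1241 ± 94.9 normalized CPM in PBS (SD, n = 3) and 1284 ± 311 in AML (SD, n = 2), and Ly6e at 420 ± 111 and 541 ± 55.3. Bst2 was at 221, 208 and 233 in PBS and at 282 and 287 in AML (log2 fold change 0.37, adjusted p = 0.875).

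A further look by rank found 4 genes of the interferon list among the 10 of lowest p with higher, non-overlapping AML levels, and none of the 4 passed. Besides Isg15 they were Ifi27l2a, Rnf213 and Ifi44. The list held 48 of the 11184 genes tested and 17 of the 1398 above every PBS library. Its share of the genes at the level used for this ranking was not counted. Ifi27l2a was at 38.9, 72.5 and 65.5 normalized CPM in PBS and 106 and 160 in AML (log2 fold change 1.30 ± 0.264 SE, adjusted p = 0.0546), and it passed in 9 of 17 alternatives. Without AML replicate 3 its log2 fold change was 0.86. Its reads may be shared with near-identical family members. Rnf213, a ubiquitin ligase, was at 38.9, 42.5 and 46.1 in PBS and at 90.5 and 83.8 in AML (1.01, adjusted p = 0.157). Ifi44 was at 29.7, 20.4 and 26.8 in PBS and at 37.3 and 56.2 in AML (1.00, edgeR adjusted p = 0.284). Its AML replicate 1 value rests on 7 UMIs, and its log2 fold change was 0.49 without AML replicate 3.

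The promoter of Isg15 is shown because it carries the known interferon-stimulated response element, searched on both strands as GAAA, any 2 bases, then GAAA. It is the 250 bases before the RefSeq start, on build GRCm38.p6, chr4:156200819-156201068, minus strand, written 5′ to 3′ with matches in capitals.
Isg15: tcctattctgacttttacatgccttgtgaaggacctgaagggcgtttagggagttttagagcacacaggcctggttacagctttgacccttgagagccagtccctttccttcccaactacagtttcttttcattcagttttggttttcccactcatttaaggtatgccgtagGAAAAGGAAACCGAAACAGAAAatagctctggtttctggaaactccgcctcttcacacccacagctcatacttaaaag
The 3 overlapping matches begin 78, 72 and 66 bases before the start. The same motif was found in 978 of 32851 promoters of that length (2.98%). The promoters of Rnf213 and Ifi44 held no match to it, and none of the 3 held TTCNNNGAA, the palindromic motif that STAT dimers bind, found in 7.02% of promoters. Of the 4 genes, 3 had an entry.

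**Figure D4:**
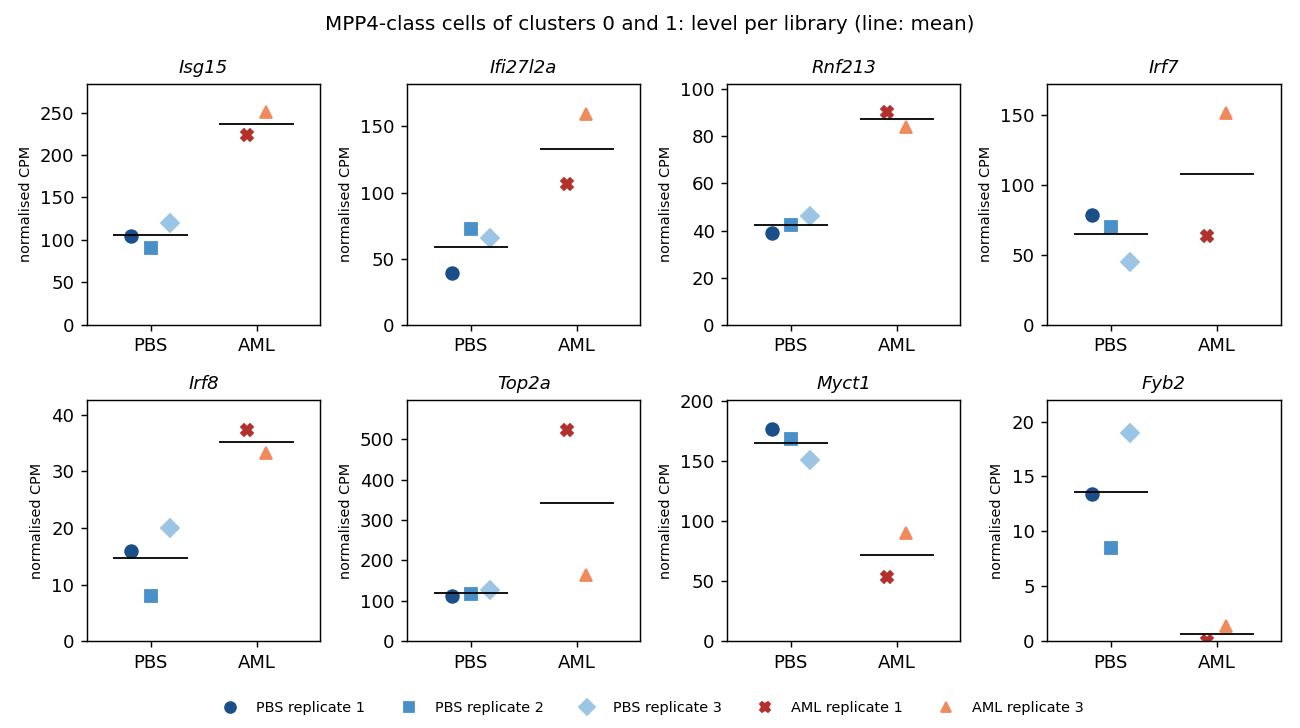
Normalized CPM (y axis) of 8 genes in the members of each library, 3 PBS and 2 AML, with lines at the group means. Isg15, Ifi27l2a, Rnf213 and Irf8 are above every PBS library in both AML libraries, Irf7 only in AML replicate 3, and Top2a mainly in AML replicate 1. The Irf8 point of AML replicate 1 rests on 7 UMIs.

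Among the other genes of lowest p with higher levels, Pclaf, Top2a and Prc1 are genes of DNA replication and mitosis. Top2a was at 113, 117 and 127 normalized CPM in PBS and at 522 and 163 in AML (log2 fold change 1.37, edgeR adjusted p = 0.0886). AML replicate 1 held the high value for each of the 3. Without it, their log2 fold changes were 0.56, 0.48 and 0.43, and without AML replicate 3 they passed at 2.5, 2.11 and 2.90. In G1 cells of all 5 libraries, with 15 cells of AML replicate 1, Pclaf was at 1.67, Top2a at 0.50 and Prc1 at 1.13. Of 52 G2M phase genes, 48 were positive, beside 47.7% of all genes, with a median of 0.42, and none passed. The median was 0.14 without AML replicate 1 (35 of 52 positive) and 0.14 in those G1 cells (19 of 31 positive). Without AML replicate 3 it was 1.21, beside −0.16 over all genes. The remaining 3 were Ms4a6c (36.7 ± 8.54 in PBS and 88.8 ± 9.87 in AML), Parp8 (161 ± 38.9 and 344 ± 161) and Fkbp5 (43.6 ± 10.0 and 87.7 ± 11.4). Ms4a6c, a membrane protein gene of monocytes, had an adjusted p of 0.0691 and a log2 fold change of 1.21, or 0.54 with cells thinned to 1500 UMIs. Parp8 and Fkbp5 had adjusted p of 0.319 and 0.339. Parp8 was at 0.54 on the log2 scale without AML replicate 1 and at 1.49 without AML replicate 3, where it passed.

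Genes with lower, non-overlapping AML levels and the lowest p included Pdzk1ip1 of the HSC list and the immediate early genes Ier2 and Zfp36. Myct1 was at 176, 168 and 151 normalized CPM in PBS and at 53.2 and 90.2 in AML (log2 fold change −1.04 ± 0.271 SE, edgeR adjusted p = 0.218). Pdzk1ip1 was at 80.3, 79.3 and 80.4 in PBS and at 26.6 and 45.3 in AML (−0.94, adjusted p = 0.353). Pcp4l1, Wfdc17, Myl10 and U2af1l4 had log2 fold changes of −1.33, −1.09, −1.04 and −0.98 with edgeR adjusted p from 0.157 to 0.360. In AML replicate 1, Pdzk1ip1 rests on 5 UMIs and U2af1l4 on 4. Without AML replicate 3, Pcp4l1 was at −3.20, from 1 UMI in AML replicate 1, Wfdc17 at −2.32, where it passed (adjusted p = 0.0388), Pdzk1ip1 at −1.61 and Myct1 at −1.65. Without AML replicate 1, Wfdc17 was at −0.67. Of 19 HSC genes tested, 6 were positive, with a median of −0.30, which was −0.78 without AML replicate 3 and −0.12 in G1 cells of all 5 libraries. Over all genes the median was −0.16 without AML replicate 3 and −0.04 in those G1 cells. The markers Flt3 (0.04), Satb1 (0.61), Hlf (−0.39) and Mecom (−0.14) had adjusted p of 0.780 or more, and Satb1 was higher and Hlf lower in both AML libraries than in any PBS library. The Hlf value was −0.17 without AML replicate 1 and −0.86 without AML replicate 3, and Mecom was at −0.064 without AML replicate 1 and close to 0 without PBS replicate 3.

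Immediate early genes, which cells induce within minutes of stimulation or handling, had a median log2 fold change of −0.63, the lowest of the lists with 5 or more genes tested. Of 20 tested, 2 were positive and none passed. Ier2 was at 1151, 629 and 522 normalized CPM in PBS and at 250 and 442 in AML (−1.09, edgeR adjusted p = 0.360), and Zfp36, which destabilizes inflammatory transcripts, at 121, 148 and 65.5 in PBS and 37.3 and 58.7 in AML (−1.03, adjusted p = 0.360). Ier2 was at −0.68 without PBS replicate 1, and Zfp36 at −1.59 without AML replicate 3 and −0.64 with the replicate block. Fos spread widely within PBS, at 580, 318 and 157, and was at 229 and 140 in AML. Their summed level was 4008, 2961 and 1573 CPM in PBS and 1601 and 1789 CPM in AML, so PBS replicate 3 was level with AML. Ribosomal protein genes (9 of 78 positive, median −0.29, or −0.17 without AML replicate 1) and mitochondrially encoded genes (3 of 13, median −0.45) also had negative medians.

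**Figure D5:**
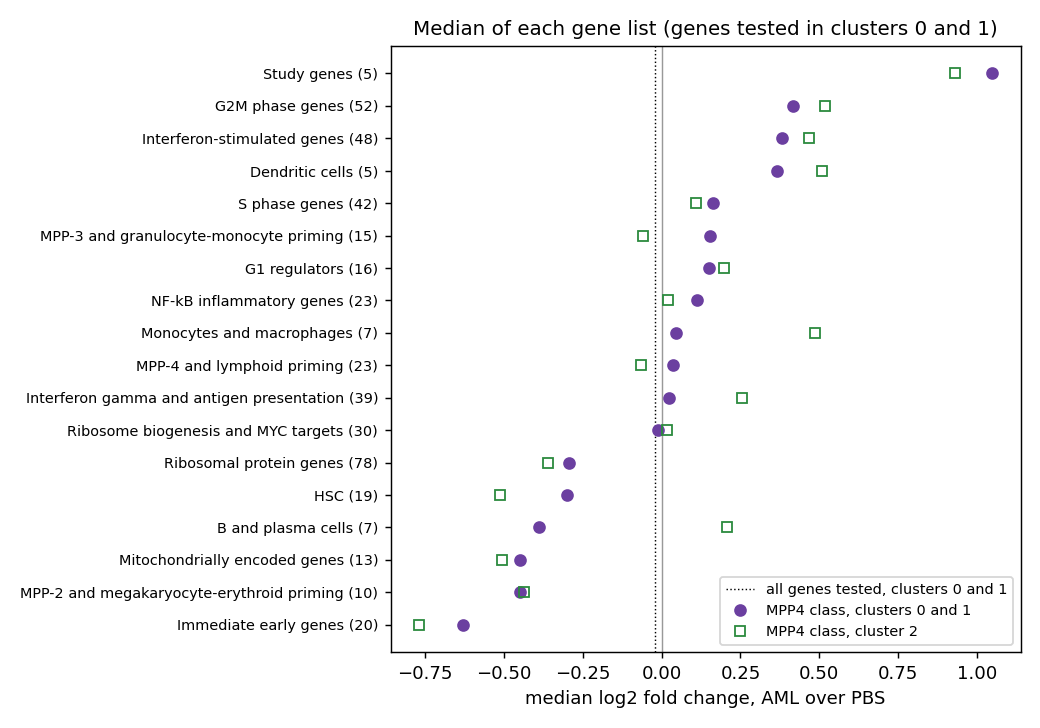
Median log2 fold change of AML over PBS (x axis) for each gene list with at least 5 genes tested, in the members (filled circles) and in the MPP4-class cells of cluster 2 (open squares). In the members the medians run from −0.63 for immediate early genes to 1.05 for the study genes, beside −0.02 for all genes tested (dotted line).

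The other lists of progenitor and signaling genes had medians from −0.45 to 0.16. The MPP-4 list had 13 of 23 genes positive (median 0.04), MPP-2 3 of 10 (−0.45), MPP-3 8 of 15 (0.15), interferon gamma and antigen presentation 23 of 39 (0.02) and NF-kB inflammatory genes 13 of 23 (0.11). S phase genes had 28 of 42 positive (0.16), G1 regulators 9 of 16 (0.15) and ribosome biogenesis genes 14 of 30 (−0.01). No gene of these lists passed. B2m, the shared light chain of MHC class I, was at 1563 ± 14.7 normalized CPM in PBS and 1274 ± 213 in AML (adjusted p = 0.917). Cdk6, a G1 kinase, was at 445, 290 and 369 in PBS and at 665 and 562 in AML (log2 fold change 0.72, adjusted p = 0.715).

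Summed levels of mature cell markers in the members were lowest for neutrophil genes. The 14 neutrophil genes summed to 1.6 to 4.43 CPM in PBS and 8.77 to 11.2 CPM in AML, with 6 of them at 0 throughout, Ly6g among them. The 11.2 CPM of AML replicate 1 lies under the 16.7 CPM that a count of 0 allows in that library. T and NK cell genes summed to 147 to 221 CPM in PBS and 179 to 215 CPM in AML, with Cd3e and Cd3g at 0 and Nkg7 the main contributor. B and plasma cell genes summed to 255 to 440 CPM in PBS and 184 to 298 CPM in AML, with Cd79a and Ms4a1 at 0. Ighm, Igkc and Cd79b were the most abundant of those tested. Their means were 152, 106 and 72.2 normalized CPM in PBS, and 87.6, 74.4 and 48.7 in AML. Monocyte and macrophage genes summed to 151 to 206 CPM in PBS and 184 to 201 CPM in AML, and mast cell and basophil genes to 24 to 29 and 32 to 39 CPM. Erythroid genes summed to 76 to 129 CPM in PBS and 84 to 91 CPM in AML. Dendritic cell genes, several of which MPP4 cells express, summed to 626 to 770 CPM in PBS and 876 to 943 CPM in AML, with Siglech and Cd209a at 0. All 5 of those tested were positive (median 0.37), and whether other cell types have a part in that was not tested.

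The same comparison in the MPP4-class cells of cluster 2 gave 21 genes higher (0.192%) and 10 lower (0.0914%) of 10942, from 3000 cells. AML replicate 1 supplied 41 of these cells and 118389 UMIs, and the cluster 2 fit was not repeated without it. Isg15, Irf8, Ifi27l2a and Ms4a6c were among the higher genes there, at log2 fold changes of 1.16, 1.11, 1.06 and 1.05, beside 1.19, 1.15, 1.30 and 1.21 in the members. The 2 groups of cells come from the same libraries. Whether the AML effect differed between them was tested with 1 model over both, with a term for each library. For Isg15 the difference was −0.07 ± 0.140 (SE) on the log2 scale and for Irf8 −0.01 ± 0.269, each with an edgeR adjusted p of 0.999. None of 51 interferon-stimulated genes passed, which does not show that the groups of cells responded alike.

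The AML effect differed between the members and cluster 2 for 6 of 11623 genes (0.0516%), 4 of them higher in the members relative to cluster 2. Ikzf2, which encodes the Helios transcription factor of lymphoid and stem cells, was at 154, 124, 138, 133 and 165 normalized CPM in the members. In cluster 2 it was at 88.4, 73.3 and 75.6 in PBS and at 14.8 and 54.5 in AML, below PBS in both libraries. The difference was 0.83 ± 0.174 (SE, edgeR adjusted p = 0.0040). Without AML replicate 3 it was 2.38 (adjusted p = 0.575), against a cluster 2 level in AML replicate 1 that lies under the 25.3 CPM a count of 0 allows there. Hlf was at 199, 200 and 214 in the PBS members and at 112 and 180 in the AML members. In cluster 2 it was at 107, 123 and 99.6 in PBS and at 66.8 and 56.3 in AML, so it was below PBS in both AML libraries in each group of cells. Its difference was 0.71 ± 0.169 (SE, adjusted p = 0.0472), and without AML replicate 3 it was −0.13. Its own AML effect passed in neither group of cells (−0.39 in the members and −0.91 in cluster 2, adjusted p 0.875 and 0.338). Il7r missed the threshold with a difference of 1.47 (adjusted p = 0.0721, as for Slc44a4 and Ccl3), from 1.34 to 5.61 normalized CPM in the PBS members and 0 and 13.9 in AML, and was named after its values were seen. The remaining 4 genes that passed, Dqx1, Gm13842, Gm10457 and C77080, varied widely within a group or rested on few UMIs.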

How the data were processed

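Per the file headers and the submitters' processing notes, the authors aligned and counted with Cell Ranger 7.0.1 on GRCm38 (mm10) and analyzed cells in R 4.2.2 with Seurat 4.3.0. The deposited matrices hold raw UMI counts for 32285 genes in 6 libraries. The deposited cell table gives UMI counts per cell, the percent of mitochondrial and ribosomal UMIs per cell, module and cell cycle scores made by the authors, and a class and cluster. The sources used here do not give their cell filter or treatment of doublets, and no doublet caller was run. The lowest UMI count in the table is 1801 and the highest mitochondrial value 5.23 percent. A further 11 columns were not used, and some genes are not reported here.

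Table rows were joined to the matrices by library and barcode, and UMI counts were summed per library over the members, over MPP4-class cells of cluster 2 and over HSC-class cells, where at least 20 cells were present. AML against PBS was fitted with edgeR 4.0.16 (R 4.3.3; TMM, filterByExpr by group, quasi-likelihood F test, Benjamini-Hochberg, threshold 0.05). The difference of the AML effect used the same test with terms for library, population and their interaction with treatment. Classes and clusters were made from these cells' genes, so ratios between groups of cells carry no test. They use 0.5 added UMIs and genes with a mean of at least 50 CPM in either group. Shares were compared by exact permutation over 10 splits. Named genes were the 4 markers, the study genes, the 3 most abundant tested genes of each list and any that passed, then up to 10 in each direction that passed or, where fewer did, those of lowest p with a mean log2 CPM of at least 5 and groups that do not overlap. For ratios they were the 10 largest in each direction (5 for cluster 0 against cluster 1), and for the difference the 5 of lowest p. The members, the 22 gene lists and the markers were chosen with earlier results of these data known. Mx1 and Mx2, of the interferon list, were not among the genes in the files. The count fits were tested on simulated data. Alternatives included DESeq2 1.42.0 and limma-voom 3.58.1 (limma 3.58.1). Promoters are from RefSeq.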

Additional observations from a re-analysis of the deposited data

Results flagged for a closer look

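The AML effect differed between the members and the MPP4-class cells of cluster 2 for 6 genes in edgeR's test of the difference itself (adjusted p under 0.05). Values are normalized CPM in the order PBS replicates 1 to 3, then AML replicates 1 and 3.

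Ikzf2 differed by 0.83 on the log2 scale and Hlf by 0.71, both lower in AML than in PBS in cluster 2, with values given above. Ikzf2 passed in 5 of 8 alternative fits and Hlf in 2 of 8. Without AML replicate 3 the differences were 2.38 for Ikzf2 and −0.13 for Hlf, and neither passed. C77080 differed by −0.93, at 49.7, 142, 227, 189 and 56.0 in the members and 48.4, 80.8, 120, 304 and 66.1 in cluster 2, so that PBS alone spanned 49.7 to 227 in the members. Dqx1 differed by −3.06, at 1.51, 36.1, 9.91, 10.2 and 1.64 in the members and 3.20, 50.1, 16.5, 0 and 28.9 in cluster 2. Gm13842 differed by 6.40, with 3, 1, 2, 0 and 52 UMIs in the members, of which the 52 were in AML replicate 3. Gm10457 differed by 9.32, with 2, 4, 0, 0 and 20 UMIs in the members and none in either AML library of cluster 2, so the size of its difference depends on the prior count of the fit.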

How the results depend on the processing

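The count of genes that passed for AML against PBS (1 in edgeR with TMM) was 0 with DESeq2 (228 at an unadjusted p under 0.05), 0 with limma-voom (643) and 0 with cells thinned to 1500 UMIs in edgeR (597). It was 12 with library size as the only scaling (median of all genes 0.09), 53 with no filter, 5 without cells near the class boundary, 2 in cluster 0 alone, 9 in cluster 1 alone, 9 without the cells of highest UMI count and 3 in G1 cells, where AML replicate 1 had 15 cells and was left out. Keeping it, chosen after seeing the data, gave 5. Leaving out single libraries gave 0 to 44. A lone AML library is then assumed to vary like PBS. The same replicate numbers in PBS and AML are only numbers in the labels, and same-numbered libraries deviated with correlations of −0.0758 and −0.0697 over 4563 genes. With 2 AML libraries the crossed pairs must mirror these, at 0.0758 and 0.0697. Such values cannot settle whether equal numbers mark a pair. With the replicate block, 4 genes passed. The cause of these moves was not tested.

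The difference between members and cluster 2 (6 genes) gave 0 with thinned cells (385 at an unadjusted p under 0.05 in edgeR) and 1 to 13 without single libraries. The members' share of MPP4-class cells differed by −0.31 percentage points, by 2.27 without cells near the boundary, and by −3.35 to 2.73 without single libraries. It was 0.64 without PBS replicate 1. The share of all cells ran from −11.1 to −2.80 and the G1 share from −51.4 to −5.55 without single libraries. No cell in the table had under 1500 UMIs, so a floor at that depth would leave these shares as they are. Thinning to 1500 UMIs took UMIs from every cell, the lowest count being 1801. The Flt3 log2 ratio over cluster 2 was −0.29 without cells near the boundary.

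Of 34 AML effects and differences of single genes that were refitted, 29 kept their direction under every alternative run. Flt3 in AML (main value 0.04) was −0.095 with the replicate block, −0.27 to 0.24 without single libraries (−0.056 without PBS replicate 2), −0.0018 thinned, −0.064 without boundary cells, −0.098 in cluster 1 and −0.027 in G1 cells of 5 libraries. Mecom was 0.0051 thinned and 0.017 in those G1 cells. Without single libraries, Irf7 ran from −0.044 to 1.25, the Dqx1 difference from −3.48 to 8.35 and the Hlf difference from −0.13 to 0.80. Without AML replicate 3 or 1, the median of the interferon-stimulated list was −0.052 or 0.51 and that of the MPP-4 list −0.095 or 0.15, the latter −0.027 in G1 cells. Over all genes the median was −0.16 or −0.0057 in these 2 fits, and −0.04 in G1 cells of 5 libraries. The reversals of Irf7, Dqx1 and Hlf came without AML replicate 3, as did the negative interferon median, which stayed above that of all genes. The Dqx1 value there sets 2 UMIs in the members against 0 in cluster 2 and is no measure of size. The 179260 UMIs of AML replicate 1 limit what can be seen in that library.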

Other observations

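Transcripts of surface proteins used to sort stem and progenitor cells are given here as the share of cells with at least 1 UMI after thinning each cell to 1500 UMIs. Cd48, carried by MPP4 cells and absent from most HSCs, was seen in 13.3% to 20.4% of the members, 17.3% to 25.2% of cluster 2 and 2.9% to 15.8% of HSC-class cells, where the highest value is from the 19 cells of AML replicate 1. Unthinned, the members held 33.3% to 58.5%. Procr, which encodes the EPCR protein of HSCs, was seen in 0.0% to 4.3% of the members and 0.0% to 9.7% of HSC-class cells. Slamf1 (CD150) was seen in at most 0.1% of the members after thinning and in 0.0% to 1.7% before it. Kit was seen in 15.0% to 17.4% of the members, 5.9% to 10.6% of cluster 2 and 16.9% to 26.5% of HSC-class cells in 4 libraries, with 63.2% of the 19 cells of AML replicate 1, although all cells were sorted for the cKit protein. Mpo was seen in 5.4% to 10.3% of the members in 4 libraries, 18.3% of the 60 in AML replicate 1 and 3.8% to 4.9% of cluster 2, and Gata1, an erythroid factor, in 0.0% to 0.3% of the members in 4 libraries and 3.3% of those in AML replicate 1. These shares are descriptions with no test.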
